A study of Mus musculus with 2 samples.

Results

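The nuclear genes for the subunits of respiratory complex I were examined in long-read RNA sequencing of the mouse adrenal gland. They were taken as every annotated gene whose symbol is Ndufa, Ndufb, Ndufc, Ndufs, Ndufv or Ndufab followed by a number, which gave 37 genes of 16945 with at least 1 read. All 37 were read in both libraries, with 18768 reads in replicate 1 and 9704 in replicate 2. The tissue came from female mice of the strain B6CASTF1/J, a cross of CAST/EiJ with C57BL/6J, and were 36 days old, with no treatment or engineered allele given in the labels. The 2 libraries form 1 group, numbered as biological replicates, so there are no conditions to compare. One label gives both libraries the same animal number and another gives them different numbers, and p-values and spread therefore refer to these 2 libraries and may be technical. Replicate 1 started from 1 µg of RNA, and no quantity is given in the labels for replicate 2. The questions the data can answer are how strongly each subunit gene was read, in which transcript forms, and how far the libraries differed.

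Complex I, the NADH:ubiquinone oxidoreductase, takes electrons from NADH, passes them along iron-sulfur clusters to ubiquinone and pumps protons across the inner mitochondrial membrane. Its matrix arm consists of the N module, which binds NADH, and the Q module, which reduces the quinone, and its membrane arm has a proximal and a distal part that pump protons. A conserved core of nuclear and mitochondrially encoded subunits carries out catalysis, and the accessory subunits surround it. In the adrenal gland, mitochondria supply energy and are also a site of steroid hormone synthesis. Ndufa4 was named as a complex I subunit but is now placed in complex IV, cytochrome c oxidase. It is counted by the symbol rule, and the main sums and shares are also given without it.

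Replicate 1 held 1223776 reads, of which 1144572 fell on annotated genes, and replicate 2 held 453761, of which 414588 did. The unit of level is CPM, the number of reads a gene had per 1000000 on annotated genes. In this assay 1 read was taken as 1 transcript, so CPM was not divided by transcript length. Levels of different genes are compared on that scale, and whether transcripts of different length were read equally well was not tested. With 3 reads as the limit that a count of 0 allows, a gene without reads could stand at up to 2.62 CPM in replicate 1 and up to 7.24 in replicate 2. Genes of the adrenal cortex were read at 54340 and 71555 CPM in sum over 5 markers in replicates 1 and 2, and 5 markers of the medulla at 9944 and 6739 CPM. The libraries also differed in other tissues: 5 skeletal muscle markers summed to 875 CPM in replicate 1 and 4.82 in replicate 2, with 3 of the 5 at 0 reads there, and 6 fat markers summed to 6967 and 10203 CPM. Blood, endothelial and macrophage markers summed to 3153, 366 and 322 CPM in replicate 1 and to 3071, 359 and 265 in replicate 2. In tissue RNA, fewer cells of a type and less RNA per cell cannot be told apart, and the part of these other tissues in the results that follow was not tested.

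The subunit genes together took 1.64% of the annotated reads in replicate 1 and 2.34% in replicate 2. In CPM this was 16397 and 23406, a mean of 19902 ± 4956 (SD, n = 2). Without Ndufa4 the sums were 15158 and 19952 CPM. The subunit genes lay in a narrow range high in the ranking of all genes: 36 of the 37 were among the 1000 genes with the highest mean CPM, and 34 of the 36 other than Ndufa4 lay within a factor of 2 of their own median. The median of the members' means was 484 CPM, from Ndufs5 at 184 to Ndufa4 at 2346, and the highest after Ndufa4 was Ndufc1 at 946. CPM was higher in replicate 2 for 31 of 37 members. The order of the members was partly shared, with a Spearman rho of 0.71 between the libraries over the 37 genes, which come from the same 2 libraries and are not independent replicates.

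**Figure D1:**
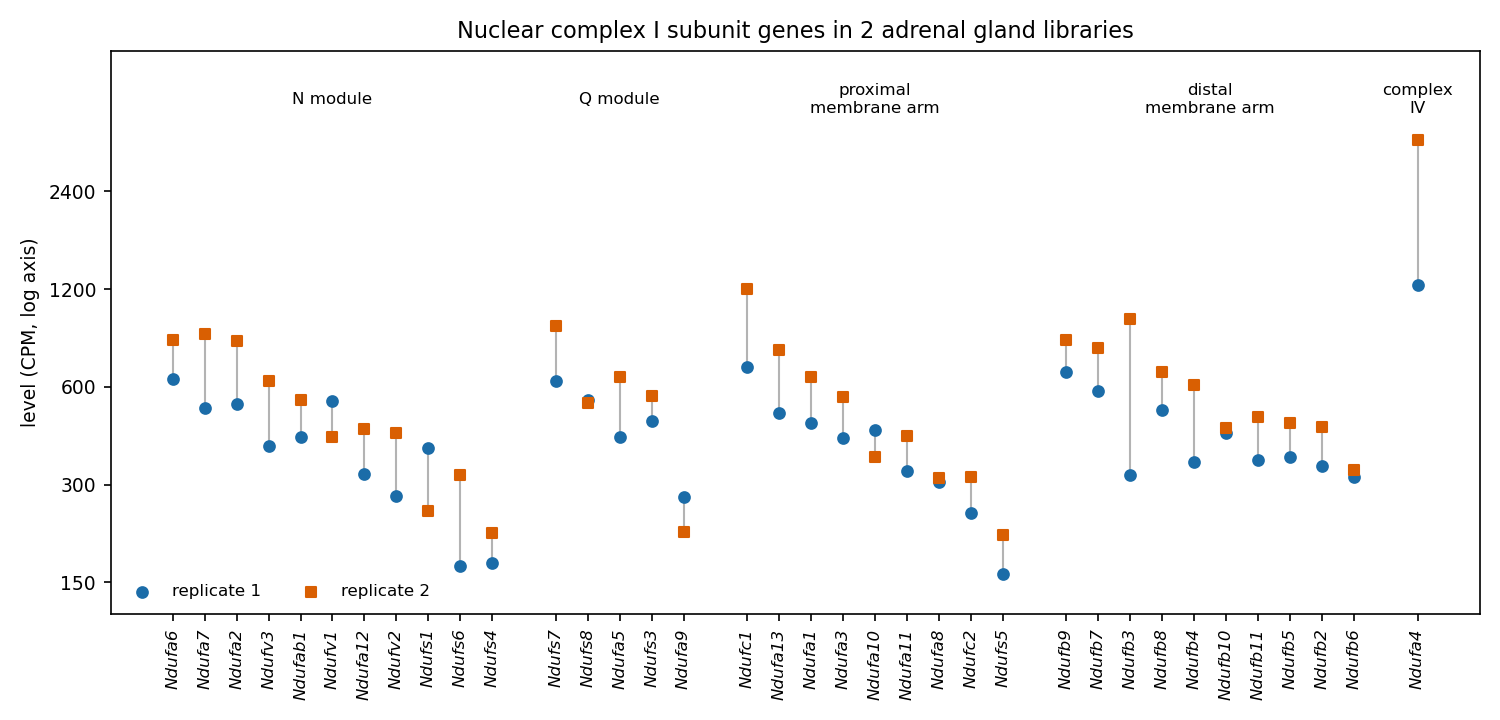
Level of 36 subunit genes in CPM (log axis) in replicate 1 (blue circles) and replicate 2 (orange squares), grouped by the part of the complex its protein belongs to and ordered within each group by the mean. Lines join the libraries of 1 gene. Most orange squares lie above the blue circles, and Ndufa4, at 1239 and 3454 CPM, lies above all others.

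The N module genes summed to 4372 CPM in replicate 1 and 5789 in replicate 2. Its core consists of Ndufv1, which holds the flavin and the NADH site, Ndufv2 and Ndufs1, which carry iron-sulfur clusters. Ndufv1 was read at 542 and 420 CPM in replicates 1 and 2. Ndufv2 was read at 277 and 432 CPM. Ndufs1, the largest subunit of the matrix arm, was read at 390 and 248 CPM. Ndufv1 and Ndufs1 were thus higher in replicate 1 and Ndufv2 in replicate 2, where it passed both. Among the accessory subunits, Ndufa6, a LYR-motif protein that binds the acyl carrier protein, was read at 633 and 835 CPM and led the module by its mean. Ndufab1, the mitochondrial acyl carrier protein itself, was read at 421 and 548 CPM. Ndufa7 was read at 518 and 871 CPM, and was the highest of the module in replicate 2. The lowest of the module by their means were genes of small accessory subunits. Ndufs4, whose loss in mice is used as a model of Leigh syndrome, was read at 172 and 212 CPM. Ndufs6, a zinc-binding subunit, was read at 169 and 321 CPM. The remaining genes of the module lay between these, with Ndufa2, which has a thioredoxin-like fold, at 532 and 832 CPM, Ndufv3 at 395 and 627, and Ndufa12, related to the assembly factor Ndufaf2, at 324 and 444.

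The Q module genes summed to 2990 and 3300 CPM. Several of its genes belong to the core. Ndufs7, which carries the iron-sulfur cluster next to the quinone, was the highest by its mean at 626 and 926 CPM. Ndufs8 was read at 545 and 535 CPM and Ndufs3 at 470 and 562. Ndufs7 and Ndufs3 were thus higher in replicate 2, and Ndufs8 was at nearly the same level in both. The accessory subunits of the module were Ndufa5, at 422 and 644 CPM, and Ndufa9, at 275 and 215 CPM, a protein with a dehydrogenase fold that holds a nicotinamide nucleotide. Ndufa9 was the lowest of the Q module in both libraries.

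The proximal part of the membrane arm summed to 3553 and 4810 CPM and held both the highest and the lowest gene of the complex. Ndufc1 was read at 688 and 1204 CPM, and was the single gene besides Ndufa4 to exceed 1000 CPM in a library. Ndufs5, which lies on the intermembrane side, was read at 159 and 210 CPM. Ndufa13, also known as Grim19, was read at 498 and 777 CPM. Ndufa10, related to nucleoside kinases, was read at 443 and 364 CPM, and was the one gene of this part with a lower level in replicate 2. The others were Ndufa1 at 465 and 642 CPM, Ndufa3 at 418 and 560, Ndufa11 at 330 and 425, Ndufa8 at 307 and 314 and Ndufc2 at 245 and 316.

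The distal part of the membrane arm summed to 4244 and 6054 CPM. Its nuclear genes, all accessory, had the most even levels of the 4 parts, with the highest 2.11 times the lowest in replicate 1 and 2.91 times in replicate 2. Ndufb9, another LYR-motif protein, was read at 667 and 839 CPM. Ndufb7 was read at 582 and 789 CPM and Ndufb8 at 508 and 666 CPM. Ndufb3 stood apart in its difference between the libraries, at 322 CPM in replicate 1, among the lower genes of this part, and 970 CPM in replicate 2, the highest of it. Ndufb4 was read at 352 and 608 CPM, Ndufb10 at 432 and 449, Ndufb11 at 357 and 485, Ndufb5 at 364 and 466, Ndufb2 at 343 and 451 and Ndufb6 at 316 and 333.

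The 7 nuclear core genes summed to 3501 CPM in replicate 1 and 3541 in replicate 2, a mean of 3521 ± 28.3 (SD, n = 2). The sum of the 29 accessory genes without Ndufa4 was 11658 and 16412 CPM, a mean of 14035 ± 3361 (SD, n = 2). Core genes of higher and lower level in replicate 2 balanced in the sum, whereas most accessory genes were higher there.

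Between the libraries, the reads of a gene were tested against the depths scaled by TMM factors (exact binomial test, two-sided), with Benjamini-Hochberg adjustment over 9885 genes. It sets a difference against counting error alone. By this test 26 of the 37 members were higher in replicate 2, 2 were lower and 9 were not called. Of all genes tested, 7.86% were called higher and 6.13% called lower. On the log2 scale, the median ratio of replicate 2 to replicate 1 was 0.47 over the members and -0.01 over all genes. Well-read genes are called more often, so the same shares were taken over the 1144 genes with at least the 269 reads of the least-read member: 24.0% were higher and 22.2% lower. Against a test that adds the spread between the libraries over all genes to the counting error (edgeR exact test with a common dispersion of 0.0942, a coefficient of variation of 30.7%), 0 of 37 members were called, with 2 members at an unadjusted p under 0.05 and a lowest adjusted p of 0.643. By that edgeR test 0.283% of all genes were called. By the exact binomial test, the differences of single members thus exceeded counting error in 28 of 37 cases. The edgeR dispersion was estimated from the same 2 libraries that were tested, so that test could call few genes. No conclusion about the members is drawn from its 0 of 37.

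The largest ratio was that of Ndufb3, with 368 reads in replicate 1 and 402 in the shallower replicate 2. On the TMM-scaled log2 scale this was 1.66 (95% interval of counting error 1.46 to 1.87; exact binomial test, Benjamini-Hochberg adjusted p = 7.71e-53). Ndufa4 followed with 1418 and 1432 reads, a log2 ratio of 1.55 (1.44 to 1.66; exact binomial test, adjusted p = 6.87e-170). Ndufs6 came next at 0.99, then Ndufc1 at 0.88, Ndufb4 at 0.86 and Ndufa7 at 0.82, all called higher in replicate 2 by the exact binomial test. The order of these genes depended on incomplete models: with full-length models only, the log2 ratio was 0.91 for Ndufb3 and 0.73 for Ndufa4, below 1.07 for Ndufs6, 0.95 for Ndufc1, 0.95 for Ndufb4 and 0.93 for Ndufa7. With those models only, 2 members were no longer called. Ndufs7, at 0.63 with all models, was at 0.21 (exact binomial test, adjusted p = 0.348). Ndufa13, at 0.71 with all models, was at 0.01, with 12 and 4 full-length reads in replicates 1 and 2. Of the members called lower, Ndufs1, with 446 and 103 reads, had a log2 ratio of -0.58 (exact binomial test, adjusted p = 0.00233). The 9 members that were not called were Ndufs8, Ndufv1, Ndufb10, Ndufa10, Ndufb6, Ndufa8, Ndufa9, Ndufs4 and Ndufs5, with log2 ratios from -0.30 for Ndufv1 to 0.47 for Ndufs5.

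By part of the complex, 8 of 11 N module genes, 3 of 6 Q module genes, 6 of 9 proximal and 8 of 10 distal membrane arm genes were called higher in replicate 2, beside 7.86% of all genes called higher and 6.13% called lower. Of the 7 core genes, 3 were called higher and 2 lower, with a median log2 ratio of 0.05. Of the 29 accessory genes, 22 were called higher and 0 lower, with a median of 0.47. The difference between core and accessory genes was not tested.

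Transcript length moved with these ratios, among the members and among all genes. The 9 members whose most read transcript is under 600 bp had a median log2 ratio of 0.54, and the 14 members from 600 to under 1000 bp one of 0.49, with 23 of 23 ratios above 0. The 6 members from 1000 to under 1500 bp had a median of 0.44, and the 7 of 1500 bp or more one of -0.21. Those 7 were mixed, from -0.58 for Ndufs1 to 0.71 for Ndufv2. Of their ratios 3 were above 0, with 2 members called higher and 2 lower. Over all genes tested, the medians in the same classes were 0.43, 0.33, 0.04 and -0.08. Spearman's rho of length and ratio was -0.44 over the 36 members with an annotated leading transcript and -0.08 over 9334 genes, points that all share the same 2 libraries. Among well-read genes under 1000 bp, 48.5% of 266 were called higher in replicate 2 and 4.89% lower, with a median log2 ratio of 0.39, and of the 23 members under 1000 bp 18 were called higher and 0 lower, with a median of 0.51. Of the 13 longer members 7 were called higher and 2 lower, beside 24.0% and 22.2% of the 1144 well-read genes of any length. Over all genes tested, 96 of 1109 from 1000 to under 1500 bp were called higher and 51 lower. From 1500 bp on, 398 of 7133 were called higher and 501 lower. A share over well-read genes of 1000 bp or more was not taken. The length of Ndufb2, 4371 bp, is that of the annotated transcript, since the files give annotated ends for known models.

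**Figure D2:**
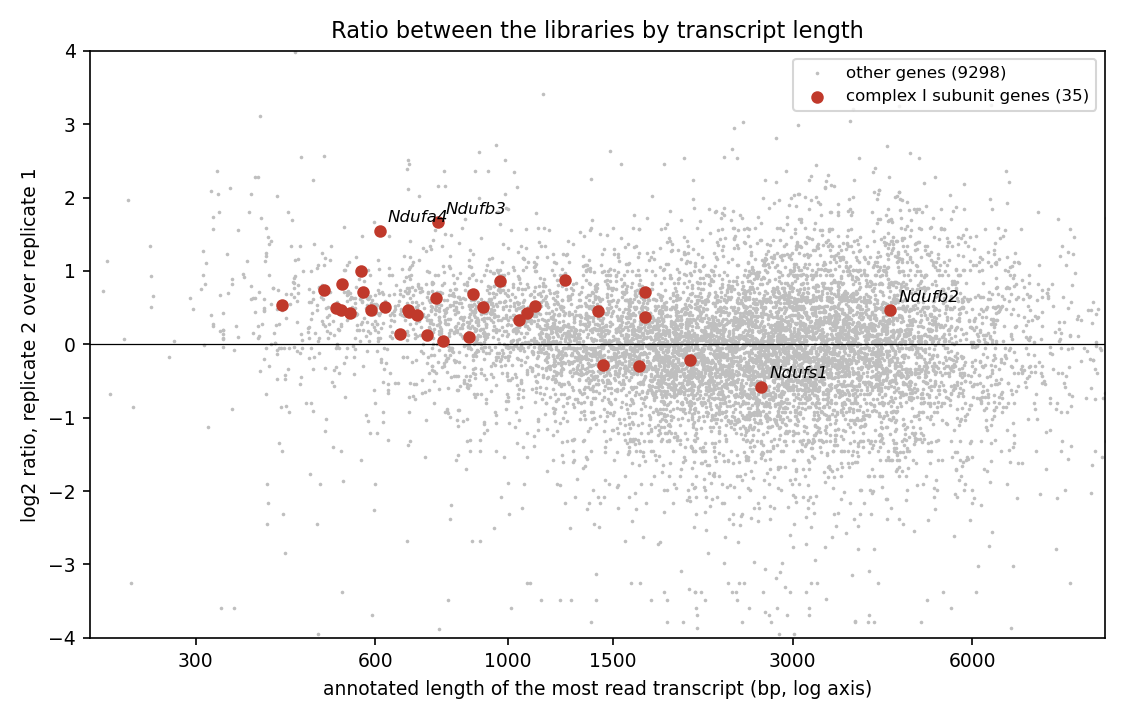
Log2 ratio of replicate 2 to replicate 1 against the annotated length of the most read transcript (bp, log axis) for 35 subunit genes (red) and 9298 other genes (grey), of which 103 lie outside the axes. Subunit genes under 1000 bp all lie above 0, and Ndufs1 lies below it at -0.58.

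The partners of these genes were read as follows. The mitochondrially encoded subunits, which form the proton-pumping core of the membrane arm, are made from the mitochondrial genome as other transcripts with their own processing. Their 7 genes summed to 188 CPM in replicate 1 and 926 in replicate 2. The nuclear subunit genes thus had 87.3 times the reads of the mitochondrial ones in replicate 1 and 25.3 times in replicate 2. Without Ndufa4 the ratios were 80.7 and 21.5. Each is a ratio of assigned reads. How fully mitochondrial transcripts were captured and assigned was not tested, so these ratios cannot be read as ratios of RNA abundance. The highest of these mitochondrial genes were mt-Nd2 at 76.0 and 323 CPM, mt-Nd1 at 50.7 and 321 and mt-Nd4 at 42.8 and 198. These 3 and mt-Nd5, the 4 genes with enough reads to test, were all called higher in replicate 2 by the exact binomial test. Their median log2 ratio was 2.35, and 7.86% of all genes tested were called higher. mt-Nd4l had no read. 

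Of 19 assembly factors, proteins that build the complex without staying in it, 18 were read, at 1064 and 1192 CPM in sum, a median of 39.9 CPM per gene read. The highest were Tmem70 at 274 and 323 CPM, Ndufaf8 at 95.2 and 181 and Ndufaf7 at 76.0 and 174. Ndufaf8 and Ndufaf7 were called higher in replicate 2 by the exact binomial test, 0 of the 18 were called lower, and the median log2 ratio was 0.01. Over all genes tested, 7.86% were called higher and 6.13% lower. Coa1 had no read. Nuclear subunits of complexes II to V summed to 34214 and 41581 CPM over 38 genes, and the complex I genes without Ndufa4 had 0.443 and 0.480 of that level in replicates 1 and 2. In these ratios Ndufa4 was on neither side. With Ndufa4 counted among the complex I genes, the values were 0.479 and 0.563. A ratio with Ndufa4 counted among complexes II to V was not taken. The highest were Atp5b and Cox4i1, subunits of ATP synthase and of cytochrome c oxidase, at mean levels of 3664 and 3181 CPM, and Uqcrq of complex III at 2393. Of these 38 genes 22 were called higher in replicate 2 and 3 lower (Atp5a1, Sdha and Uqcrc2). The median log2 ratio of the 38 was 0.48, beside 0.47 for complex I. Of the 1144 well-read genes 24.0% were called higher and 22.2% lower, and of the 266 under 1000 bp 48.5% and 4.89%.

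Of 8 regulators of mitochondrial gene expression, Esrra, the oestrogen-related receptor alpha, was read most, at 162 and 234 CPM. It was the one of 7 tested that was called, higher in replicate 2, beside 7.86% of all genes tested called higher. Tfam, which packages and transcribes the mitochondrial genome, was read at 28.8 and 24.1 CPM, and Nrf1, a transcription factor of many respiratory genes, at 31.5 and 16.9 CPM.

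Each read is assigned to a transcript model, and the models to classes. Known models match an annotated transcript, incomplete splice matches (ISM) hold a consecutive part of its introns or, with 1 exon, lie along it, NIC models combine annotated splice sites in a way not annotated, NNC models have a splice site not annotated, and Genomic models overlap introns. Of the reads of the subunit genes, 83.6% in replicate 1 and 76.6% in replicate 2 were Known, 13.1% and 21.5% ISM, 1.29% and 0.660% NIC, 1.26% and 0.989% NNC, and 0.693% and 0.299% Genomic. Over all annotated genes, Known reads were 75.5% and 69.8%, ISM reads 11.8% and 16.2%, and Genomic reads 6.30% and 8.07%. The subunit genes thus had more Known and fewer Genomic reads than annotated genes as a whole in both libraries. Without Ndufa4 the Known shares were 84.3% and 82.8%, and the ISM share was 13.6% ± 1.96 (SD, n = 2), against 17.3% ± 5.91 with it. The typical member was read almost wholly as Known: 28 of 37 had a Known share of at least 80% in both libraries, and the median of the members' mean shares was 91.5%.

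**Figure D3:**
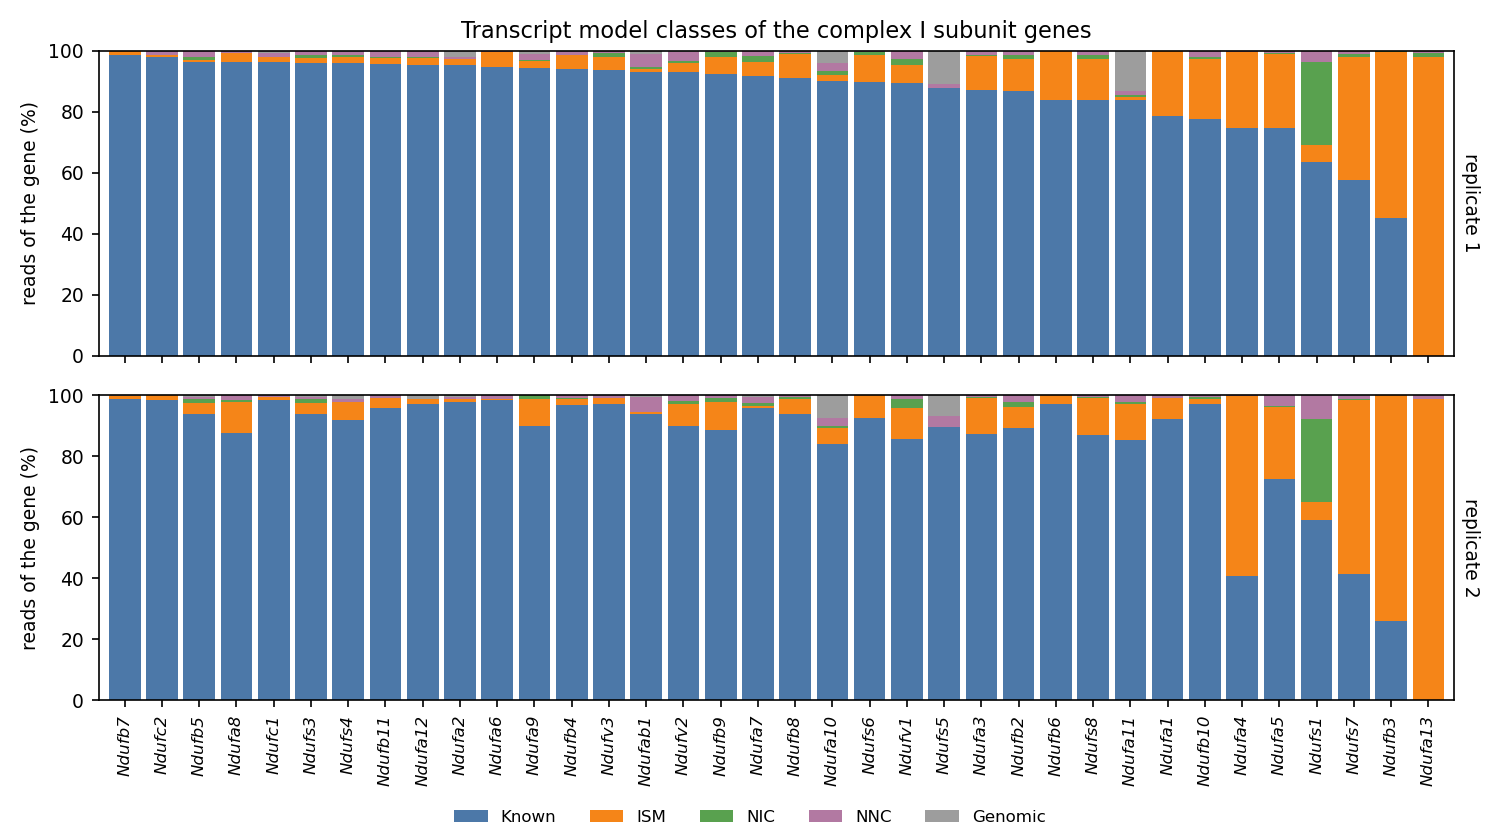
Percentage of the reads of 36 subunit genes in each model class, in replicate 1 (top) and replicate 2 (bottom), with genes in the order of their Known share in replicate 1. The bars are nearly all blue (Known) for most genes, and the orange ISM part is largest in Ndufa13 and Ndufb3 in both libraries.

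ISM reads were concentrated in a few genes. Ndufa4, Ndufa13, Ndufb3, Ndufs7 and Ndufa5 had an ISM share of at least 20% in both libraries, and held 61.5% of the members' ISM reads in replicate 1 and 83.7% in replicate 2. These models were nearly all at the 3′ side: suffix models, which hold the last introns, made up 64.7% and 76.5% of ISM reads, 1-exon models 33.5% and 23.1%, and prefix models 1.86% and 0.431%. Of the ISM reads in 1-exon models, 823 of 826 in replicate 1 and 481 of 481 in replicate 2 lay in models that overlap the last exon of the gene's leading transcript.

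Ndufa13 had 0 Known reads of 570 and 322 in replicates 1 and 2, which allows a Known share of up to 0.526% and 0.932%, and 97.9% and 98.8% of its reads were ISM. A single model of 4 exons, at chr8:69894180-69901732 on the minus strand of mm10, held 555 of 570 reads in replicate 1 and 311 of 322 in replicate 2. It lacks exon 1 of the annotated transcript Ndufa13-201, which is 678 bp long and untranslated, and holds the whole annotated coding sequence of 432 bp. The most read model of Ndufa13 thus lacks annotated exon 1 and spans the whole coding part. Its ends coincide with annotated exon borders, so where the reads themselves start was not shown.

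The other ISM-rich genes had models that lack part of the coding sequence. Ndufa4 had a model of its last 2 exons with 333 reads in replicate 1 and 838 in replicate 2, or 23.5% and 58.5% of its reads. Ndufs7 had a model of its last 2 exons, at chr10:80255924-80256792 on the plus strand, with 262 and 201 reads, or 36.5% and 52.3%. Ndufb3 had a 1-exon model that coincides with its last exon, chr1:58595649-58595964, with 199 and 296 reads, or 54.1% and 73.6%. In all 3 genes the share of these models was higher in replicate 2. Ndufa5 had a 1-exon model with 102 and 54 reads, or 21.1% and 20.2%, which did not share that direction. In Ndufa1 and Ndufb10 such models were more frequent in replicate 1: a 1-exon model of Ndufa1 had 107 and 17 reads, and 1 of Ndufb10 had 97 reads in replicate 1, beside 3 ISM reads of any kind in replicate 2.

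**Figure D4:**
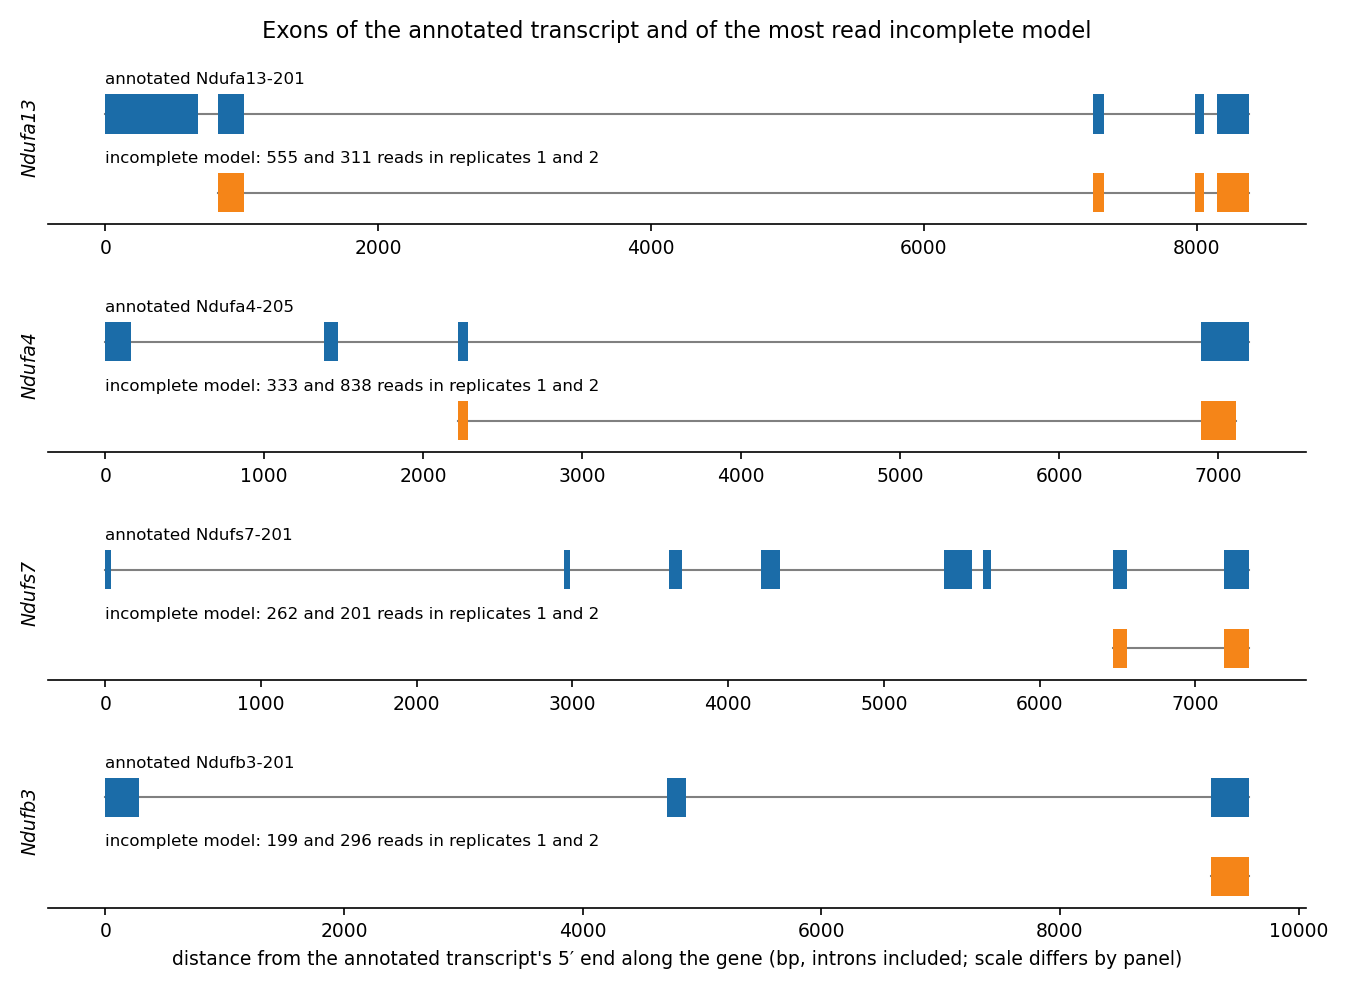
Exons (boxes) and introns (lines) of the annotated transcript (blue) and of the most read incomplete model (orange) for Ndufa13, Ndufa4, Ndufs7 and Ndufb3, by distance in bp from the annotated 5′ end. The Ndufa13 model lacks only exon 1, while those of the other genes cover the last 1 or 2 exons.

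Counted by coding sequence, 85.6% of the members' reads in replicate 1 (85.1 to 86.1 as the 95% Wilson interval) and 77.5% in replicate 2 (76.7 to 78.3) were in models that hold the whole coding sequence of the leading transcript, or 86.5% and 84.0% without Ndufa4. Known models carry annotated ends, and the main incomplete models end at annotated exon borders. A read that stops inside an outer exon could thus be counted as whole, so these shares may be too high. In 27 of 37 members the share was at least 80% in both libraries. In Ndufa4 it was 74.0% and 40.3%, which leaves 917 and 1392 CPM of its 1239 and 3454. In Ndufb3 it was 45.7% and 26.4%, or 147 and 256 CPM, and in Ndufs7 57.6% and 40.1%, or 361 and 371 CPM. The excess of replicate 2 in these 3 genes was thus smaller among models with the whole coding sequence. Summed over the members, such models gave 14030 and 18146 CPM, and 30 of 37 members were higher in replicate 2.

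Genomic reads were few except in a handful of genes. Ndufa11 had 50 such reads, 13.2% of its total, in replicate 1 and 0 of 176 in replicate 2, which allows a share of up to 1.70%. Ndufs5 had 20 and 6, or 11.0% and 6.90%, and Ndufa10 21 and 11, or 4.14% and 7.28%.

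Full-length models, the classes Known, NIC and NNC, were used to compare isoforms. For 36 members both libraries held at least 20 full-length reads, and in 27 of these 1 annotated transcript held at least 90% of them in both. The members with a second annotated transcript at 10% or more in both libraries were Ndufv3, Ndufs8, Ndufb2, Ndufs1 and Ndufa7.

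Ndufv3, an accessory subunit of the N module, is known to exist in a short and a long form. The short transcript Ndufv3-202 has 3 exons and a coding sequence of 312 bp, and held 360 of 432 full-length reads in replicate 1 (83.3%, from 79.5 to 86.6 by the 95% Wilson interval) and 217 of 255 in replicate 2 (85.1%, 80.2 to 88.9). The long transcript Ndufv3-201 has an added exon of 1092 bp, at chr17:31527310-31528401, and a coding sequence of 1404 bp. It held 63 reads in replicate 1 and 36 in replicate 2, or 14.6% and 14.1%. The adrenal gland thus read the short form about as often relative to the long form in both libraries. The junctions that tell the forms apart are shown as 15 bases on each side of the splice, with the downstream exon in capitals, from the GENCODE M21 transcripts on the plus strand of GRCm38.
Ndufv3-202, exons 2 and 3: aaagtgtgctcaaagAGCCCGAGCCGACTG
Ndufv3-201, exons 2 and 3: aaagtgtgctcaaagATGTGGGAGCAGAGG
Ndufv3-201, exons 3 and 4: cggccgacacacaggAGCCCGAGCCGACTG

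The last exon enters from exon 2 in the short form and from the long exon 3 in the other, so its first 15 bases are the same in both.

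Among full-length reads, Ndufa6 was the one member whose leading share differed between the libraries beyond counting error. Ndufa6-201, which codes for the whole protein, held 644 of 689 full-length reads in replicate 1 (93.5%, 95% Wilson interval 91.4 to 95.1) and 293 of 345 in replicate 2 (84.9%, 80.8 to 88.3; Fisher's exact test, two-sided, Benjamini-Hochberg adjusted p = 0.00356 over 2789 genes). Of all genes tested, 1.11% were called by that test. With the reads of incomplete models counted too, the shares were 89.0% and 84.7% and Ndufa6 was not called (Fisher's exact test, adjusted p = 0.274), while 8 other members were. The other reads were mainly of Ndufa6-205, which skips the middle exon of 116 bp and had 34 and 28 reads (4.93% and 8.12%), and Ndufa6-206, a transcript annotated as a retained intron with 7 and 20 reads (1.02% and 5.80%). Both were more frequent in replicate 2. The junctions of the middle exon and of its skipping, on the minus strand of chromosome 15, are shown in the same way.
Ndufa6-201, exons 1 and 2: aggtgccgaacaccgTGCACTTAATGCAGC
Ndufa6-201, exons 2 and 3: ctgctggtcattaagGGAAAGATGGAGCTC
Ndufa6-205, exons 1 and 2: aggtgccgaacaccgGGAAAGATGGAGCTC

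The skipping transcript joins the end of exon 1 directly to the start of the last exon, and its annotated coding sequence is 216 bp in place of 393.

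Ndufb2, a distal membrane arm subunit, was divided between a pair of annotated transcripts. Ndufb2-205 held 186 of 350 full-length reads in replicate 1 (53.1%) and 102 of 174 in replicate 2 (58.6%), and Ndufb2-202 held 151 and 63 (43.1% and 36.2%). The Wilson intervals of the libraries overlapped for both transcripts. They differ in the last 4 bases of exon 3, which lie beyond the stop codon. The annotated start of exon 1 and the annotated end of exon 4 differ too, and the coding sequence is 315 bp in both.
Ndufb2-205, exons 3 and 4: aaactctctggacgaGAGCAAGGTGAGACA
Ndufb2-202, exons 3 and 4: tctctggacgagtagGAGCAAGGTGAGACA

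Ndufs8 and Ndufs1 were divided by their first exons, with the same coding sequence. Ndufs8-205 held 421 of 539 and 154 of 195 full-length reads (78.1% and 79.0%), and Ndufs8-201, whose untranslated exon 1 is 268 bp in place of 65, held 93 and 34 (17.3% and 17.4%). In Ndufs1, Ndufs1-201 held 175 of 422 and 40 of 97 (41.5% and 41.2%) and Ndufs1-203, whose exon 1 overlaps that of Ndufs1-201 but ends at another splice site, held 105 and 18 (24.9% and 18.6%). Both Ndufs1 transcripts encode the same sequence of 2181 bp. In Ndufa7, Ndufa7-201 held 435 of 563 and 270 of 356 (77.3% and 75.8%), and Ndufa7-204, annotated as a retained intron, held 75 and 59 (13.3% and 16.6%). None of these 5 genes was called between the libraries by Fisher's exact test.

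**Figure D5:**
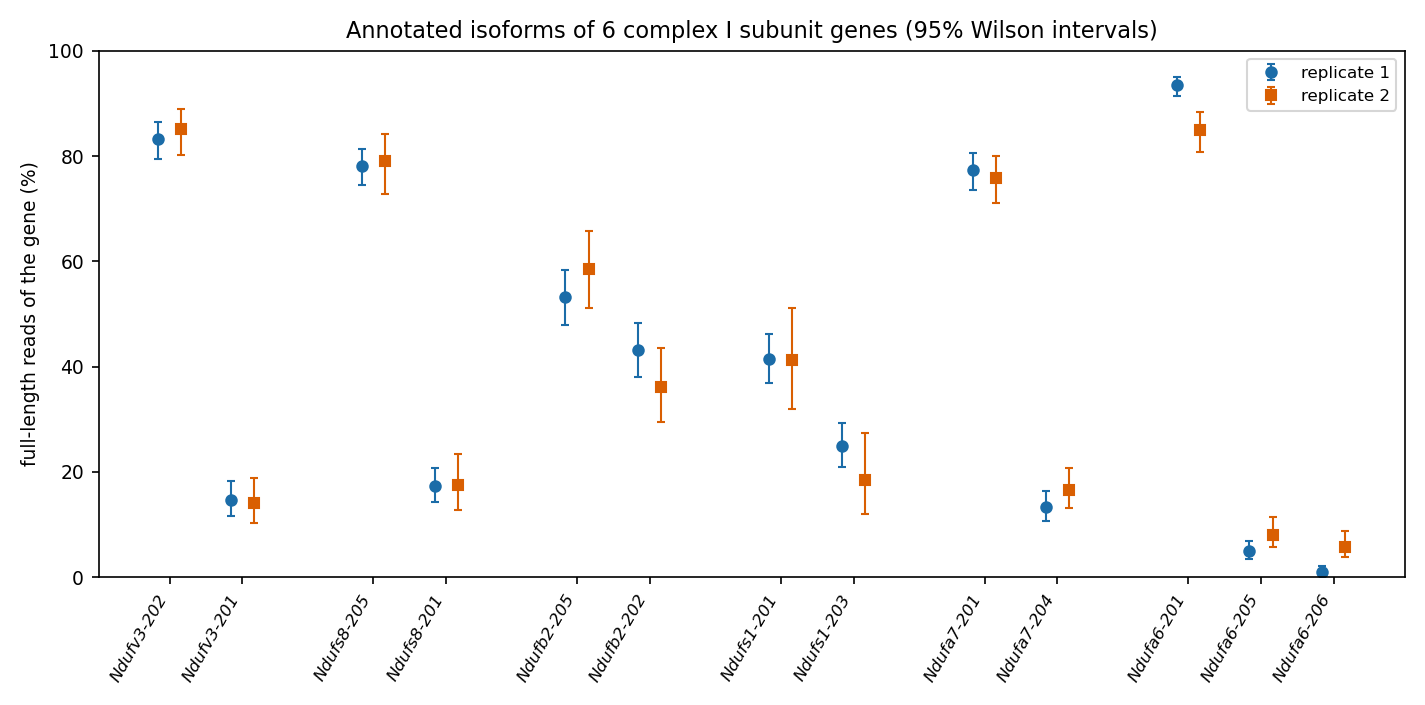
Share of the full-length reads of each gene held by annotated transcripts in replicate 1 (blue circles) and replicate 2 (orange squares), with 95% Wilson intervals. The intervals of the libraries overlap for each transcript drawn except Ndufa6-201, at 93.5% and 84.9%, and Ndufa6-206, at 1.02% and 5.80%.

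Unannotated models were rare among the subunit genes and mostly single reads. NIC and NNC models numbered 219 in replicate 1, of which 152 had 1 read, and 93 in replicate 2, of which 68 did. By identical introns, 33 such models with at least 2 reads in 1 library recurred in the other, in 21 genes, and 5 of the 33 held the whole coding sequence. The most read were 2 NIC models of Ndufs1 with 20 exons, at 63 and 23 reads (14.9% and 23.7% of full-length reads) and at 52 and 5 reads (12.3% and 5.15%). Both join annotated splice sites before the same coding sequence, so that Ndufs1 had at least 4 recurrent forms of its 5′ end. Ndufab1 had an NNC model with 18 and 10 reads, in which 1 splice site, at an intron of 518 bp, is not annotated. Ndufb9 had a NIC model with 8 and 4 reads that starts in an exon 46773 bp upstream of its next exon, within Gm49356, a gene that overlaps Ndufb9 on the same strand. Ndufb11 had an NNC model with 8 and 2 reads.

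The 37 genes lie on 15 chromosomes, and some share short upstream regions with another gene. In 9 of 37 (24.3%), a protein-coding gene starts on the other strand within 1000 bp upstream, against 6.76% of 22028 protein-coding genes. The shortest distances were 10 bp for Ndufa7 and the ribosomal protein gene Rps28, 18 bp for Ndufb9 and Tatdn1, and 52 bp for Ndufa8 and Morn5. Ndufb3 starts 61 bp from Fam126b, and Ndufa4 312 bp from Phf14. In 15 members an annotated gene on the other strand overlaps and in 6 one on the same strand, among them Yjefn3 for Ndufa13, and no source used here says whether the counting used strand.

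Promoter sequences, from 250 bases before to 50 after the start, were found in the RefSeq table for GRCm38.p6 for 33 of 37 members (35 promoters). Ndufa2, Ndufb9 and Ndufs1 were among those with no entry. Motifs of factors known to act on respiratory genes were searched on both strands, and the shares of all 32851 promoters that hold each motif are given beside. The NRF1-type motif, which reads GCGC, then NT with N for any base, then GCGC again, was in 8 of 35 promoters (22.9%), in 7 genes, against 4.60% of all promoters. The YY1-type motif AAGATGGCG was in 5 of 35 (14.3%), against 1.40%. An ETS-type motif, CCGGAAG, was in 11.4% against 8.86%, GGGCGG in 45.7% against 35.7%, CCAAT in 28.6% against 37.4% and TATAAA in 14.3% against 13.6%. TCAAGGTCA, the motif of oestrogen-related receptors, was in 0 of 35 against 0.423%. A match is a description of the letters and does not show binding. Neighbouring start sites of 1 gene can hold the same match, as in Ndufa5. The letters of no motif of the list contain those of another, and chance overlaps between matches were not counted.

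NRF1-type matches in 5 genes are shown, each read on the strand of its gene and with the match in capitals. In Ndufb4 and Ndufs5 the motif lies on the other strand, so the capitals are its reverse complement. Of the 3 matches in Ndufb4, the middle one by position is shown. The windows are Ndufa11 at chr17:56717677-56717736, Ndufa8 at chr2:36049339-36049393, Ndufb4 at chr16:37654413-37654472, Ndufs5 at chr4:123718250-123718309 and Ndufs6 at chr13:73328483-73328523.
Ndufa11: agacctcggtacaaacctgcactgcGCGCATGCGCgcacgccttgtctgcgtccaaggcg
Ndufa8: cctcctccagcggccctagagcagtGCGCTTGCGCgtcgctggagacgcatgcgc
Ndufb4: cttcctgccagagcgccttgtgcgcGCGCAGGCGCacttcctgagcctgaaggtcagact
Ndufs5: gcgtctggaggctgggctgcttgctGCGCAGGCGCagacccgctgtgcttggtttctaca
Ndufs6: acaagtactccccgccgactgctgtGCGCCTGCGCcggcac

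The matches shown begin between 98 bases (Ndufs5) and 16 bases (Ndufs6) before the start. The YY1-type matches lie after the start, and in 5 of 5 genes the ATG inside the match is an annotated start codon. They are shown with the match in capitals.
Ndufa9: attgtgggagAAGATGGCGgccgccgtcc
Ndufc1: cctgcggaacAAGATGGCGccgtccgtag
Ndufs4: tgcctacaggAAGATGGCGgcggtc
Ndufs6: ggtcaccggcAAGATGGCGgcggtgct
Ndufs7: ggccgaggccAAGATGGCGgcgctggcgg

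Levels of the genes with and without these motifs overlapped. The 7 genes with the NRF1-type motif had a median of 377 CPM, from 184 for Ndufs5 to 734 for Ndufa6, and the others a median of 487. The 5 with the YY1-type motif ranged from Ndufs4 at 192 CPM to Ndufc1 at 946, with a median of 245, and the others had a median of 483. Ndufs6 was the one gene with both motifs.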

How the data were processed

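Whole-read counts per transcript model were used as the authors deposited them, without normalization. Per the file headers and the labels, reads were aligned to mm10 and compared with GENCODE M21, and TALON named the models and classes. No source used here gives the aligner, tool versions or filters. Other deposited columns, exon numbers, lengths and exon coordinates, were used as given.

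Counts were summed per gene, and CPM computed over annotated genes without spike-ins. Ratios used TMM factors of 1.03 and 0.976 (edgeR 4.0.16) with a pseudocount of 1 CPM. Genes with at least 10 reads entered the exact binomial test, and isoforms the Fisher's exact test at 20 full-length reads per library, with a threshold of 0.05 on adjusted p-values. A quasi-likelihood count model cannot be fitted between single libraries. The exact binomial and Fisher's exact tests, intervals and floors cover counting error only. The edgeR exact test adds a common dispersion estimated from these 2 libraries. DESeq2 1.42.0 gave alternative size factors. Scripts used Python 3.11.15 and R 4.3.3 and were tested on simulated data. Members and lists were chosen with earlier results of these data known. All members could be named, and the values of 1 are not reported here, though sums and counts include it. Of other lists, the 3 highest genes and those called were, and for complexes II to V those called lower. Reads shared with near-identical copies were assigned upstream in an unstated way. The 4 annotated pseudogenes whose symbols begin with Nduf had 0 reads, and copies under other symbols were not looked up.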

Additional observations from a re-analysis of the deposited data

How the results depend on the processing

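The summed level stayed within 1 SD of its mean under each alternative tried (full-length models, models of at least 2 exons or 2 reads, all reads as the denominator, without Ndufa4). It was 16397 CPM without replicate 2 and 23406 without replicate 1. The Known share was 76.6% and 83.6% with 1 library left out, and 91.5% as the median over members in place of the pooled share, in which Ndufa4, with the most reads, weighs most. Of the count of 28 members called between the libraries, other scalings, filters and model classes gave 26 to 31, of which models of at least 2 exons, an alternative chosen after seeing the data, gave 31. The background over well-read and over short genes was also chosen after seeing the data. The edgeR exact test with the common dispersion, which was estimated from these same libraries, gave 0. With reads of incomplete models counted, 8 members in place of 1 had an isoform share called by Fisher's exact test (Ndufa1, Ndufa11, Ndufa4, Ndufa8, Ndufb10, Ndufb3, Ndufb6 and Ndufs7), beside 9.89% of all genes, and Ndufa6 was no longer among them (adjusted p = 0.274). With 1 library left out no test between libraries remains. No paired analysis was possible because there is 1 group. Depth limits replicate 2 most: Ndufs5, the least read, had 87 reads there.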

Other observations

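Genes close to the subunits in name or function, outside the symbol rule, were also read. Ndufb1-ps, outside the rule by its suffix, had 452 and 293 reads in replicates 1 and 2, or 395 and 707 CPM. Its level lay within the range of the subunit genes. Despite the suffix, it was not among the 4 genes with Nduf symbols annotated as pseudogenes. Ndufa4l2, a paralogue of Ndufa4, had 30 and 21 reads, or 26.2 and 50.7 CPM. Nnt, the transhydrogenase that links NADH and NADPH in the inner mitochondrial membrane, had 75 and 21 reads, or 65.5 and 50.7 CPM.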
